A study of Mus musculus with 2 samples.

Results

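The killer lectin-like receptor (Klr) genes encode C-type lectin-like receptors of natural killer (NK) cells, T cells and myeloid cells. They were taken here as every gene whose symbol begins with Klr and that had at least 5 unique molecular identifiers (UMIs, each standing for 1 captured transcript molecule) summed over both count matrices. This left 28 of 30 Klr genes, out of 55450 genes in the files. The lowest of the 28 was Klra10 with 15 UMIs, and the 2 genes outside the limit, Klrb1-ps1 and Klra11-ps, had 1 UMI each. The genes were chosen by this sum alone. Their distribution over cell classes and over the libraries was not used.

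The cells were CD45+ leukocytes sorted from B16F10 melanomas, a transplantable mouse tumour line, grown under the skin until day 10. The KO library came from Lyz2-Cre-Kcnj2f/f mice and the WT library from Kcnj2f/f mice, so both genotypes carry the floxed Kcnj2 alleles, and the WT mice differ from the KO mice, per the labels, in lacking Lyz2-Cre. Kcnj2 encodes the potassium channel Kir2.1, whose effect on the tumour microenvironment is the stated subject of the study. Lyz2-Cre acts in macrophages, monocytes and neutrophils, so a difference in NK or T cells is not one in cells that are the usual target of the deletion. Each library pooled the tumours of 3 mice and there was 1 library per genotype, so every difference given here is one between 2 libraries, with 95% intervals that cover counting error only and with no test.

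Klr receptors fall into families. The Klra genes encode the Ly49 receptors, which bind MHC class I molecules in the mouse and occur in activating and inhibitory forms, with only some of them present on any 1 NK cell. Klrd1 (CD94) pairs with the NKG2 proteins of Klrc1 (NKG2A, inhibitory), Klrc2 (NKG2C) and Klrc3 (NKG2E) to bind the MHC class Ib molecule Qa-1, while Klrk1 (NKG2D) binds stress-induced ligands as a homodimer with the adaptors Hcst and Tyrobp. The Klrb1 genes encode the NKR-P1 receptors, several of which bind Clec2 proteins, Klre1 pairs with Klri1 or Klri2, and Klrg1 is an inhibitory receptor for cadherins found on effector and regulatory T cells.

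The KO library held 6356 barcodes and 57047535 UMIs, and the WT library 9677 barcodes and 55219440 UMIs. After filtering, 5686 KO cells (median 8013 UMIs) and 8936 WT cells (median 4398.5 UMIs) remained, and 63 barcodes occurred in both libraries. Clusters made without Klr genes were named from marker genes, and names carry the suffix -like. The classes used most held 309 KO and 320 WT NK cell-like cells, 247 KO and 1337 WT CD8 T cell-like, 329 KO and 654 WT CD4 T cell-like, 53 KO and 67 WT gamma-delta T cell-like, 1049 KO and 746 WT macrophage-like, 391 KO and 306 WT monocyte-like, and 951 KO and 505 WT cDC2-like (type 2 conventional dendritic) cells. Kcnj2 itself was low. In macrophage-like cells it had 86 UMIs (9.55 CPM, counts scaled to a class total of 1000000) in the KO library and 117 UMIs (23.7 CPM) in the WT library. The log2 ratio of KO over WT was -1.31 (95% interval -1.73 to -0.90). The sources do not state whether the counted 3′ end lies outside the deleted stretch, so this value need not measure the deletion. Lyz2, the locus that carries Cre, was at 1706 CPM in KO against 8216 CPM in WT cells of that class (a log2 ratio of -2.27).

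All 28 genes lie on mouse chromosome 6 (build GRCm38). Of these, 26 stand between positions 128609227 and 131247362, the NK gene complex, and Klrg1 and Klrg2 lie outside it. The Klra genes follow each other there on the minus strand, and 2 of them, Klra13-ps and Klra14-ps, are annotated as pseudogenes. Neighbouring genes nonetheless divided between cell classes. The promoters of 4 Klra genes are shown because their genes had 3 separate patterns of use: Klra4 (Ly49D) and Klra8 (Ly49H), a pair of activating receptors, had most UMIs in NK cell-like cells, Klra17 (Ly49Q) in plasmacytoid dendritic cell (pDC)-like and other dendritic clusters, and Klra2 (Ly49B) in monocyte-like and macrophage-like cells. Each sequence, from RefSeq on GRCm38.p6, is the minus strand of 300 bases from 250 before to 50 after the annotated start, and capitals mark runs of at least 12 bases that also occur in another of the 4. Klra4 is at chr6:130067222-130067521, Klra8 at chr6:130129849-130130148, Klra17 at chr6:129876623-129876922 and Klra2 at chr6:131247313-131247612.
Klra4: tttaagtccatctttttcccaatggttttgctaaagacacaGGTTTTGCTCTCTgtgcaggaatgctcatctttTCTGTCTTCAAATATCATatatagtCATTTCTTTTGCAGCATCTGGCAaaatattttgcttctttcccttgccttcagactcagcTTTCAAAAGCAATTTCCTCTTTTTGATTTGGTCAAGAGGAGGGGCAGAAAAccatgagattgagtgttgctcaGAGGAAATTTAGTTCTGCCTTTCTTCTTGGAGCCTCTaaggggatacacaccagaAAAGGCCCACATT
Klra8: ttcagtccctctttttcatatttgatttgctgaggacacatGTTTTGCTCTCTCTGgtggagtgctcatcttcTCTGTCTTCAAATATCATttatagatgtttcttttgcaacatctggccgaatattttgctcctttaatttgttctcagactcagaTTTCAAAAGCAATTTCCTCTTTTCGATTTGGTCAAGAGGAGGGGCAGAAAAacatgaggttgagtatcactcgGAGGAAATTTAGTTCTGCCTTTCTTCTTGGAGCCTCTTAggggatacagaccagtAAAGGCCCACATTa
Klra17: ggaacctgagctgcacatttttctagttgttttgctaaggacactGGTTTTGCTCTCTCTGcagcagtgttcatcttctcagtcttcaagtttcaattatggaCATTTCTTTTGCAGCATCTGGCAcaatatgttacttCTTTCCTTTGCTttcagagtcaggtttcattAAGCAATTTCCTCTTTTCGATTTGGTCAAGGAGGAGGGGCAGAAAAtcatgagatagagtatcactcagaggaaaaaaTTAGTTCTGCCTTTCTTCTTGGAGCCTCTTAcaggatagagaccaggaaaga
Klra2: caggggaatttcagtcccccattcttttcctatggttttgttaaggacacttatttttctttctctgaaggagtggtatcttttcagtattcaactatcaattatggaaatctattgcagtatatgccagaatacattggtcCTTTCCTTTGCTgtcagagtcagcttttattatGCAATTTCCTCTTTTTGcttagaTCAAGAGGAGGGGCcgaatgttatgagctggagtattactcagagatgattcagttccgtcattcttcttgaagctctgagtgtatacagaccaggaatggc
RefSeq gives Klra8 a further start, whose window begins at position 130129786 and is not shown. Aligned in pairs, the Klra4 and the shown Klra8 promoter were 86.05% identical, and the other Klra8 window was 57.69% identical to Klra4 and 53.49% to Klra17. Klra17 was 79.94% identical to Klra4 and 79.35% to Klra8, and Klra2 was 75.08% identical to Klra17 and 71.6% to Klra4. Capitals cover 51.67% of Klra4, 45.33% of Klra8, 42.67% of Klra17 and 14.33% of Klra2. Other genes with most UMIs in NK cell-like cells varied. The windows of Klra9, Klra3 and Klra1 were 52.59%, 48.05% and 48.29% identical to Klra4, and those of Klra7 74.68% and 49.71%. Identity over a fixed window also depends on where the annotated start lies, and the Klra8 windows were 65.29% identical to each other. These values therefore cannot show whether the promoters group by class.

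RefSeq promoters were found for 23 of the 28 genes, as 28 entries. Short motifs of factors known in lymphocytes were searched on both strands. TGTGGT (RUNX) was in 9 of the 28 entries and in 16.8% of all 32851 promoters, and AGGAAG (ETS) was in 9 entries and in 35.4% of all promoters. TGANTCA (AP-1) was in 5 entries against 7.81% of all promoters, TCACAC (T-box) in 4 against 14.5%, and TATAAA (the TBP site) in 10 against 13.6%. A match describes these letters in this window and no more. The 3′ ends that the assay counts are also similar between some members: 29.5% of the 75-base words in the 3′ part of Klrc1 occur in another gene, most in Klrc2, and 23.7% of those of Klra9, 17.3% of Klrb1b and 13.7% of Klrb1c are shared. Reads of such genes may be split or lost, so their levels are uncertain. Klrd1, Klrk1, Klre1, Klrg1, Klra2, Klra4, Klra8 and Klra17 shared 0%.

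**Figure D1:**
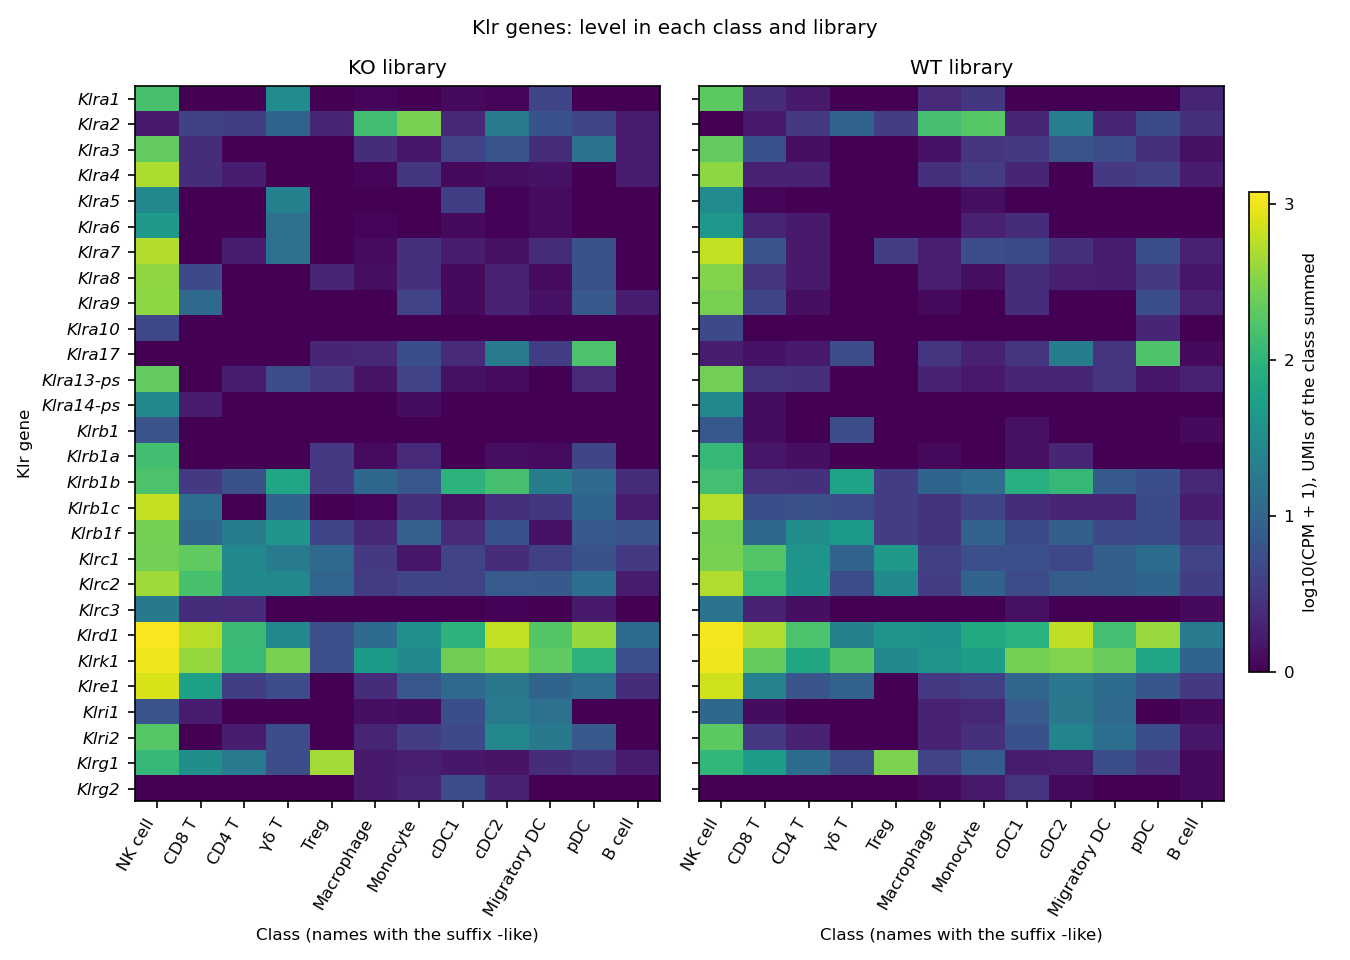
Level of each of the 28 Klr genes (rows) in 12 classes (columns) as log10(CPM + 1), with UMIs summed over the cells of a class, KO library left and WT library right. Most Klra rows are brightest in the NK column, with some colour in the KO gamma-delta T column from 21 UMIs of 4 cells, while Klra2 is bright in macrophage-like and monocyte-like cells, Klra17 in pDC-like cells, and Klrd1 and Klrk1 in NK, T and dendritic columns.

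Klr use was highest in NK cell-like cells and spread unevenly over the rest. All 28 genes summed to 7602 CPM in KO against 7428 CPM in WT NK cell-like cells. They summed to 1456 CPM in KO and 1157 in WT in CD8 T cell-like cells, 1255 CPM in KO and 1159 in WT in cDC2-like cells, 753 CPM in KO and 709 in WT in pDC-like cells, and between 216 and 567 CPM in each library of the CD4 T, gamma-delta T, regulatory T, macrophage, monocyte, cDC1 and migratory dendritic classes. B cell-like cells, which are not known to use these receptors, held 31.9 CPM in KO and 47.1 in WT. At median depths of 3151 UMIs in KO and 2448 in WT per cell, the B cell-like value is given as the level in cells that should lack these genes. The share lying in NK cell-like cells differed by family. They held 91.7% of the Klra4 UMIs of all kept cells, 89.8% of Klra8 and 88.9% of Klrb1c (the NKR-P1C antigen of NK cells), against 9.82% of Klrd1 and 14.3% of Klrk1. Dendritic classes held 46.5% of Klrd1, 50.2% of Klrk1, 75.4% of Klrb1b and 76.5% of Klri1.

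In NK cell-like cells the 2 libraries were close. The summed log2 ratio of KO over WT was 0.03 (95% interval -0.00 to 0.07), and it lay on either side of 0, between -0.09 and 0.31, over the alternative settings. Of the 28 genes, 23 had at least 20 UMIs over both libraries in this class, and 0 of these 23 were 2-fold higher or 2-fold lower in the KO library, where 2.04% of the 8924 genes with that many UMIs were at least 2-fold higher and 2.21% at least 2-fold lower. The median log2 ratio of the 23 was 0.02, against -0.03 over all 8924 genes. Klra2, Klra17 and Klrg2 had 0 or 1 UMI in NK cell-like cells of each library, and Klra10 and Klrb1 stayed under 20 UMIs.

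The shared subunits and NKG2D came out at like levels in the libraries. Klrd1 was at 1115 CPM in KO against 1102 CPM in WT NK cell-like cells (log2 ratio 0.02), and Klrk1 at 1023 CPM in KO and 1031 in WT (-0.01). Klre1 was at 775 CPM in KO against 723 CPM in WT cells (0.10), and its partner Klri2 at 185 CPM in KO and 198 in WT (-0.10), while Klri1, the other partner, had only 9 KO and 13 WT UMIs. The inhibitory Klrc1 was at 262 CPM in KO against 286 CPM in WT cells (-0.13) and Klrc2 at 440 CPM in KO and 512 in WT (-0.22, interval -0.37 to -0.07). Klrc1, Klrc2 and Klrc3 together gave 0.644 UMIs per Klrd1 UMI in KO and 0.737 in WT cells. Klrc3 alone was at 16.6 CPM in KO and 14.4 in WT. Among the NKR-P1 genes, Klrb1c was at 642 CPM in KO against 549 CPM in WT cells (0.23, interval 0.09 to 0.37), Klrb1f at 272 CPM in KO and 269 in WT, Klrb1b, an inhibitory form, at 165 CPM in KO and 144 in WT, and Klrb1a at 139 CPM in KO and 112 in WT. Klrg1 was at 112 CPM in KO and 109 in WT.

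The Ly49 genes lay on both sides, each within 2-fold. Klra4 was at 501 CPM in KO against 358 CPM in WT NK cell-like cells (log2 ratio 0.48, interval 0.32 to 0.65), Klra9 (Ly49I) at 361 CPM in KO and 280 in WT (0.37, 0.18 to 0.56) and Klra8 at 366 CPM in KO and 319 in WT (0.20, 0.02 to 0.38). Lower in the KO library were Klra1 (Ly49A), an inhibitory receptor, at 152 CPM in KO against 200 CPM in WT cells (-0.40, -0.65 to -0.14), Klra7 (Ly49G), also inhibitory, at 525 CPM in KO and 619 in WT (-0.24), and the pseudogene Klra13-ps at 220 CPM in KO and 264 in WT (-0.26). Klra3 (Ly49C) was at 216 CPM in KO and 218 in WT. Klra6 (44.8 CPM in KO and 43.3 in WT), Klra5 (26.4 CPM in KO and 30.4 in WT) and Klra14-ps (28.2 CPM in KO and 25.8 in WT) lay within their counting intervals of each other in the libraries. These sizes are of single libraries of 3 pooled mice. With each cell thinned to 1000 UMIs, which leaves out 8 KO and 27 WT cells, the log2 ratio of Klra4 was -0.10 and that of Klra9 -0.33, so the direction of both turned under that setting. At Leiden resolution 0.6 the ratios of Klra7 and Klrc2 were 0.03 and that of Klra13-ps 0.06, also on the other side of 0.

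**Figure D2:**
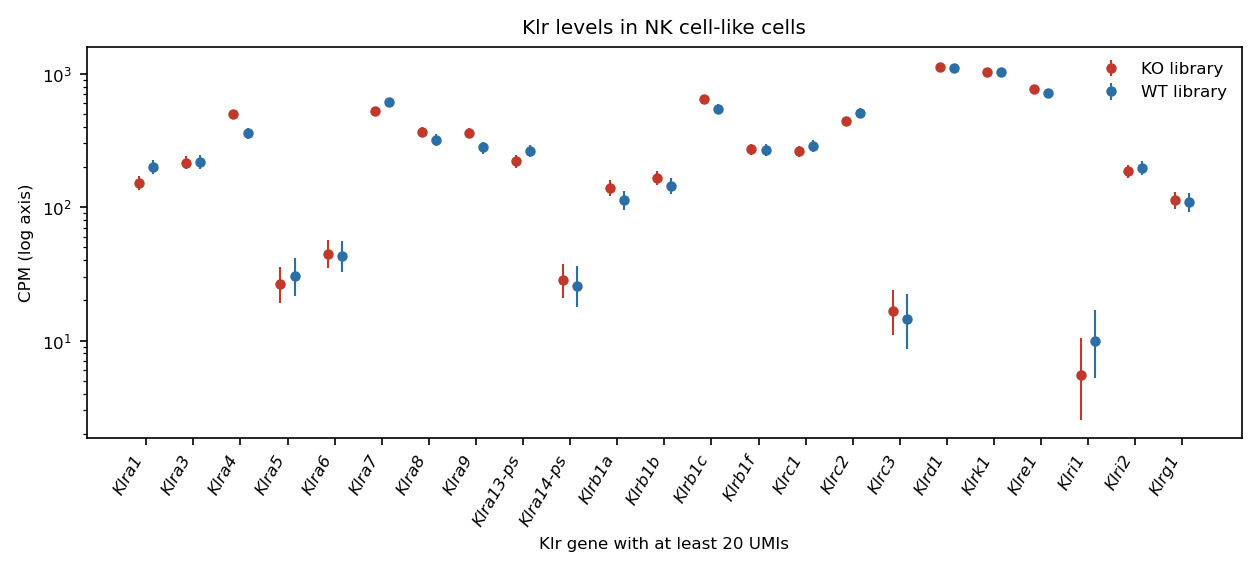
Level in CPM (log axis) of the 23 Klr genes with at least 20 UMIs in NK cell-like cells, KO points left of WT points, with exact Poisson 95% intervals. The 2 libraries lie within 2-fold of each other for every gene, with log2 ratios of KO over WT from -0.84 to 0.48. Levels run from 1115 CPM in KO and 1102 in WT for Klrd1 to 5.52 CPM in KO and 9.86 in WT for Klri1.

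T cell genes on the CD8 marker list summed to 726 CPM in KO against 1095 CPM in WT NK cell-like cells and B cell markers to 143 CPM in KO and 420 in WT, while the 15 NK cell markers summed to 18778 CPM in KO and 18657 in WT. The part of the other cells in the Klr levels was not tested. The NK receptors outside the Klr family were equally near. Of 12 such genes with at least 20 UMIs, 0 passed 2-fold, with Ncr1 highest at 586 CPM in KO against 591 CPM in WT cells, Fcgr3 the largest ratio (0.61) and Tigit the smallest (-0.60). All 16 adaptor and signalling genes had 20 UMIs and 0 passed 2-fold. The adaptor Tyrobp (DAP12) was highest at 2269 CPM in KO against 2325 CPM in WT cells, Sh2d2a had the largest ratio (0.04) and the kinase Syk the smallest (-0.32). Of 13 transcription factors, 0 passed 2-fold, with Id2 highest at 775 CPM in KO and 811 in WT, Nfil3 at 0.42 and Ikzf3 at -0.59. Of 14 cytotoxic effector genes, 2 were past 2-fold, both higher in the KO library: Gzmb (granzyme B) was at 1114 CPM in KO against 538 CPM in WT cells (1.05) and Gzmc at 434 CPM in KO and 103 in WT (2.07). The chemokine gene Ccl5 was highest there at 10243 CPM in KO and 11642 in WT, and Ctsw had the smallest ratio (-0.20).

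Single NK cells held several Klr genes at a time. With each cell thinned to 2000 UMIs, 273 KO cells had 7.36 ± 2.81 of the 28 genes and 259 WT cells 7.11 ± 2.66 (SD over cells of 1 library). Of the 11 Ly49 genes without the pseudogenes, KO cells had 1.83 and WT cells 1.61 on average, and 18.3% of KO and 21.6% of WT cells had none. The highest number in a cell was 6 in KO and 5 in WT cells. Detection of the pair of activating Ly49 genes overlapped. Klra8 was detected in 57.3% of the 89 KO cells with Klra4 and in 18.5% of the 184 without it, and in the WT library in 48.3% of 58 and 18.4% of 201 cells. For the inhibitory Klrc1 the order of the shares was the other way round. Klra8 was detected in 19.5% of 87 KO cells with Klrc1 and in 36.6% of 186 without it, and in WT cells in 16.5% of 97 and 30.2% of 162. Klra4 was detected in the same order of shares, at 24.1% and 36.6% of KO and 16.5% and 25.9% of WT cells. The cells of a library are not independent samples, so these shares are a description. A gene at few UMIs per cell is also missed in many cells that express it.

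**Figure D3:**
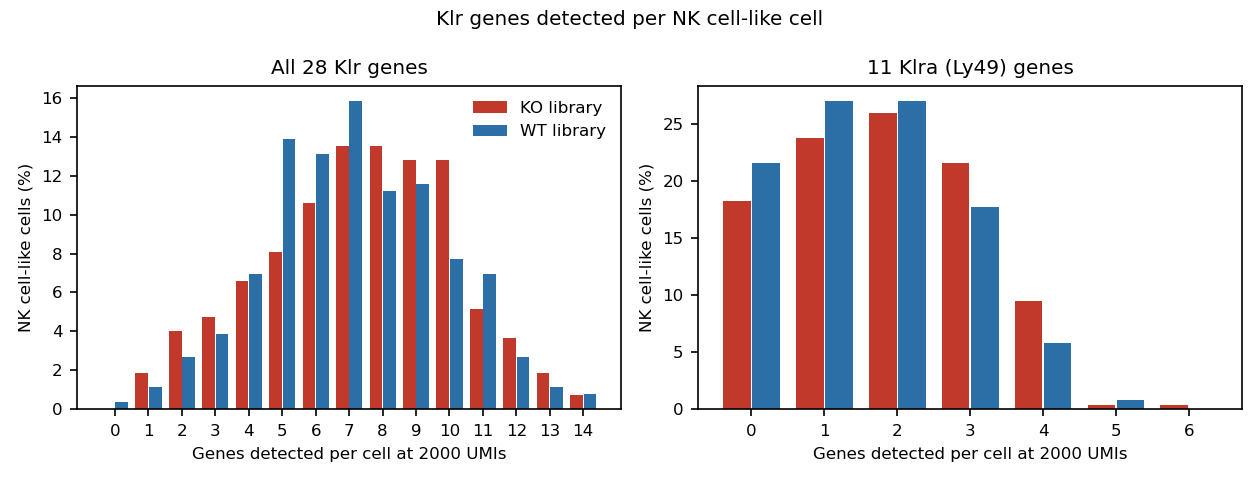
Share of NK cell-like cells (%) by the number of Klr genes detected at 2000 UMIs per cell, for all 28 genes (left) and the 11 Ly49 genes (right), KO bars left of WT bars. Means are 7.36 KO and 7.11 WT for all genes and 1.83 KO and 1.61 WT for the Ly49 genes.

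CD8 T cell-like cells used the CD94, NKG2A and NKG2D genes and almost no Ly49 gene. The summed Klr level was 1456 CPM in KO against 1157 CPM in WT cells (log2 ratio 0.33, interval 0.26 to 0.40). With components centred per library before clustering, which put 8 KO cells in the class, the ratio was -0.59, and the ratios of Klrd1, Klrc2 and Klrc1 were -1.25, -1.23 and -1.82. Klrd1 was at 567 CPM in KO against 518 CPM in WT cells (0.13), Klrc1 at 212 CPM in KO and 181 in WT (0.22) and Klrc2 at 152 CPM in KO and 117 in WT (0.37). Klrk1 was higher in the KO library, at 388 against 224 CPM in WT (0.80, interval 0.65 to 0.94). Klre1 was too, at 57.6 CPM in KO against 22.0 CPM in WT cells (1.39, 0.98 to 1.78), detected in 36 of 247 KO and 92 of 1337 WT cells. Klrg1, a gene of effector cells, was lower at 32.9 CPM in KO against 51.8 CPM in WT cells (-0.65, -1.14 to -0.20).

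Of 12 Klr genes with at least 20 UMIs in CD8 T cell-like cells, 3 were at least 2-fold higher in the KO library (Klre1, Klrb1c and Klra9) and 2 at least 2-fold lower (Klra7 and Klra3), against 3.01% and 3.21% of 10694 genes. Apart from Klre1 these rested on few cells. Klrb1c had 16 KO UMIs in 10 cells and 34 WT UMIs in 24 cells (1.41), and Klra9 14 KO UMIs in 3 cells and 26 WT UMIs in 10 cells (1.60). Klra7 had 0 KO UMIs and 42 WT UMIs in 16 cells. Its log2 ratio of -1.31 takes 3 counts in place of 0, which brings the ratio nearer to 0, so its size is set by that substitution. Klra3 had 2 UMIs in KO and 38 in WT (-1.75). NK markers summed to 3890 CPM in KO against 4592 CPM in WT CD8 T cell-like cells, and Ncr1, which NK cells but not most T cells express, had 0 KO and 16 WT UMIs. The part of NK cells in the Klra values was not tested. In a wider set of 500 KO and 2438 WT cells with Cd3 and Cd8 transcripts and without Cd4 or Trdc, whatever their cluster, Klrk1 was at 282 CPM in KO against 188 CPM in WT cells (0.58), Klre1 at 51.8 CPM in KO and 25.1 in WT (1.05), Klrg1 at 37.3 CPM in KO and 34.5 in WT (0.11) and Klra7 with 47 UMIs in KO and 184 in WT (0.01). The Klrk1 and Klre1 ratios kept their sign in this set and the Klrg1 and Klra7 ratios did not. It held more cycling cells in the KO library, with 19.4% of KO and 9.93% of WT cells in a cluster led by cell cycle genes, and their part was not tested.

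Around these receptors, the adaptor Hcst (DAP10), the partner of NKG2D, was highest of 14 adaptor and signalling genes with 20 UMIs, at 1124 CPM in KO against 1192 CPM in WT CD8 T cell-like cells, and 0 of the 14 passed 2-fold. Tyrobp was at 44.1 CPM in KO and 42.5 in WT there, far under its NK cell-like level. Of 14 transcription factors, Klf2 was the 1 at least 2-fold higher (212 CPM in KO against 103 CPM in WT cells, 1.04) and Zfp683 the 1 lower (2 UMIs in KO and 29 in WT, -1.36). Of 13 cytotoxic effectors, 1 was past 2-fold, Gzma (granzyme A), at 374 CPM in KO against 880 CPM in WT cells (-1.23).

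CD4 T cell-like cells held less of the same genes. The sum was 352 CPM in KO against 372 CPM in WT cells (log2 ratio -0.08, interval -0.23 to 0.07), and the ratio was 1.0 with components centred per library, which put 18 KO cells in the class. Klrk1 was again higher in the KO library, at 121 CPM against 68.1 CPM in WT (0.83, 0.53 to 1.12). Klrd1 was lower, at 124 CPM in KO against 159 CPM in WT cells (-0.36), as were Klrc1 at 26.4 CPM in KO and 38.4 in WT (-0.54), Klrc2 at 29.2 CPM in KO and 41.4 in WT (-0.50) and Klrb1f at 19.4 CPM in KO and 31.9 in WT (-0.72). Klrg1 was at 18.1 CPM in KO and 11.4 in WT (0.66, interval -0.13 to 1.44), and Klre1 had 4 KO and 17 WT UMIs. Of these 7 genes 0 reached 2-fold, with Klre1 just inside it (interval of the log2 ratio -3.03 to 0.62), against 1.93% of 9702 genes higher and 2.4% lower, and their median log2 ratio was -0.50 against -0.00 over all genes. NK markers were also lower, at 1503 CPM in KO against 1912 CPM in WT CD4 T cell-like cells, and 2 of 13 cytotoxic effectors were at least 2-fold lower and 0 higher. Markers of type 2 innate lymphoid cells were higher, at 582 CPM in KO against 399 CPM in WT cells, with 4 of 6 genes at least 2-fold higher, and erythroid markers had 0 KO and 1718 WT UMIs. The part of these cells in the Klr values was not tested. A further set held 234 KO and 506 WT cells with Cd3 and Cd4 transcripts and without Cd8 or Foxp3, whatever their cluster. As log2 ratios, Klrk1 was there at 0.52 (0.21 to 0.82), Klrd1 at -0.14 (-0.39 to 0.10) and Klrc1 at -0.48 (-1.15 to 0.14). Klrc2 was at -0.88 (-1.72 to -0.12), Klrb1f at -0.85 (-1.60 to -0.15) and Klrg1 at -0.93 (-2.17 to 0.16), so Klrg1 changed sign.

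In gamma-delta T cell-like cells, whose leading genes include Trdc, Tcrg-V6 and Il23r, only Klrk1, Klrb1b and Klrb1f reached 20 UMIs. Klrk1 was at 279 CPM in KO against 180 CPM in WT cells (log2 ratio 0.63, interval 0.05 to 1.23), Klrb1b at 65.4 CPM in KO and 60.1 in WT (0.12) and Klrb1f at 39.3 CPM in KO and 47.3 in WT (-0.27). None of the 3 was past 2-fold, against 3.02% of 3608 genes higher and 4.55% lower. The summed level was 567 CPM in KO against 357 CPM in WT cells (0.67, 0.26 to 1.08), on 130 UMIs in KO and 83 in WT. Klra genes gave 21 of the KO UMIs, all in 4 cells, and 3 of the WT UMIs. Without the 5 cells with the most Klr UMIs in each library, that ratio was 0.24.

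A second view of gamma-delta T cells came from cells with Cd3 and Trdc transcripts and without Cd4 or Cd8b1, whatever their cluster. These 66 KO and 65 WT cells held 2952 CPM in KO and 2017 in WT of Klr UMIs, among them Klrd1 at 560 CPM in KO against 278 CPM in WT cells, Klre1 at 299 CPM in KO and 181 in WT and Klra7 at 231 CPM in KO and 166 in WT. Of the Klr genes with 20 UMIs there, 7 were at least 2-fold higher in the KO cells and 0 lower: Klrd1, Klrc1 (66 KO and 15 WT UMIs), Klrb1a (36 KO and 3 WT), Klrg1 (21 KO and 3 WT), Klra3 (44 KO and 0 WT), Klra5 (20 KO and 0 WT) and Klra6 (20 KO and 1 WT). Some rested on few KO cells: Klra5 on 3, Klra6 on 5, Klrg1 on 7 and Klra3 on 8. The share of all genes past 2-fold was not computed for this set, so the count has no background beside it. Of the cells in the set, 35 KO and 40 WT were in the gamma-delta T cell-like cluster, and 24 KO and 13 WT in the NK cell-like cluster. Gamma-delta T cells and NK cells with Trdc transcripts cannot be told apart by these values.

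In regulatory T cell-like cells Klrg1 gave 394 of 431 Klr UMIs in the KO library and 113 of 171 in the WT library, with 450.7 CPM in KO against 298 CPM in WT cells (log2 ratio 0.60, interval 0.29 to 0.91), detected in 68.7% of 115 KO and 46.6% of 73 WT cells. At 1000 UMIs per cell these shares were 34.2% in KO and 26.5% in WT, against 6.98% in KO and 8.53% in WT in NK cell-like, 4.05% in KO and 4.87% in WT in CD8 T cell-like and 0% in KO and 0.0701% in WT in B cell-like cells. The 5 regulatory T cell-like cells with the most Klrg1 held 19.3% of its UMIs in the KO and 41.6% in the WT library. The Klrc, Klrd1 and Klrk1 genes together had 25 KO and 53 WT UMIs, 28.6 CPM in KO against 140 CPM in WT cells (-2.29, -3.04 to -1.58). These UMIs lay in 15 KO and 15 WT cells. In the WT library the top 5 cells of each gene held 80% of Klrd1, 90% of Klrk1, 90.9% of Klrc2 and 76.5% of Klrc1. The only other single gene with 20 UMIs, Klrc1, had 9 KO and 17 WT UMIs (-2.12) and was the 1 past 2-fold, against 4.41% of 6367 genes higher and 3.49% lower. Cell cycle genes were higher in the same KO cells, at 567 CPM in KO against 227 CPM in WT cells, and B cell markers lower, at 467 CPM in KO and 851 in WT. Their part in the Klrg1 level was not tested.

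Dendritic classes together held 46.5% of all Klrd1 UMIs, against 17.2% in T cell classes and 9.82% in NK cell-like cells. In cDC2-like cells Klrd1 was at 630 CPM in KO against 615 CPM in WT cells (log2 ratio 0.04), and 49.0% of the KO Klrd1 UMIs lay in this class, while in the WT library the class with most was CD8 T cell-like, with 24.5%. These shares also depend on class size, which was 951 KO and 505 WT cDC2-like cells and 247 KO and 1337 WT CD8 T cell-like cells. In cDC2-like cells Klrd1 came almost without its partners. Klrc1, Klrc2 and Klrc3 gave 0.0131 UMIs per Klrd1 UMI in KO and 0.0174 in WT cDC2-like cells, against 0.644 and 0.737 in NK cell-like and 0.644 and 0.577 in CD8 T cell-like cells. Klrk1 was at 356 CPM in KO against 310 CPM in WT cDC2-like cells (0.20, interval 0.12 to 0.28), with a ratio of -0.07 when each cell was thinned to 1000 UMIs. Its adaptor Hcst was at 32.0 CPM in KO against 46.1 CPM in WT cells, with Tyrobp at 1905 CPM in KO and 2126 in WT. Klrb1b was at 149 CPM in KO against 111 CPM in WT cells (0.43, 0.30 to 0.56), detected in 571 of 951 KO and 243 of 505 WT cells, or in 11.3% in KO and 9.46% in WT at 1000 UMIs per cell against 0% of KO and 0.14% of WT B cell-like cells. Klri2 (25.8 CPM in KO and 23.7 in WT), Klri1 (17.7 CPM in KO and 16.1 in WT), Klra17 (16.9 CPM in KO and 18.6 in WT) and Klre1 (15.9 CPM in KO and 15.3 in WT) had log2 ratios between -0.14 and 0.13. Of 13 genes with 20 UMIs, 0 were 2-fold higher and 1 lower, Klrc1 with 20 KO and 22 WT UMIs (-1.29), against 2.47% and 2.8% of 11978 genes.

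Klrk1 and Klrd1 recurred in the other dendritic classes, at levels that differed between them. In cDC1-like cells Klrk1 was at 259 CPM in KO against 269 CPM in WT cells (-0.06), Klrd1 at 97.7 CPM in KO and 92.3 in WT (0.08) and Klrb1b at 96.6 CPM in KO and 86.1 in WT (0.17). Of 10 genes 1 was at least 2-fold higher, Klrg2 with 22 KO and 5 WT UMIs (1.15, interval -0.28 to 2.91), and 0 lower, against 2.34% and 1.89% of 10359 genes. In migratory dendritic cell-like cells Klrk1 was at 215 CPM in KO against 236 CPM in WT cells (-0.14) and Klrd1 at 178 CPM in KO and 145 in WT (0.29, 0.12 to 0.47). Of 9 genes there, 2 were at least 2-fold higher, Klrb1b at 18.7 CPM in KO and 6.39 in WT (1.55, 0.79 to 2.40) and Klra2 with 23 UMIs in KO and 3 in WT (2.14), and 1 lower, Klrc1 with 13 UMIs in KO and 20 in WT (-1.42), against 1.98% and 4.3% of 10278 genes.

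pDC-like cells held Klrd1 at 391 CPM in KO against 407 CPM in WT cells (-0.06) and Klra17 at 164 CPM in KO and 172 in WT (-0.06). Klra17 was detected in 16.2% of KO and 17.4% of WT pDC-like cells at 1000 UMIs and in 0% of B cell-like cells in each library. Klrk1 was at 96.6 CPM in KO and 64.9 in WT (0.57, interval 0.21 to 0.94). Of 9 genes, 4 were at least 2-fold higher (Klra3, Klrb1b, Klrb1c and Klre1) and 1 lower (Klrc1), against 1.54% and 3.03% of 9170 genes, but the 4 higher ones rested on 4 to 6 KO cells each, such as Klra3 with 20 KO UMIs in 5 cells and 3 WT UMIs in 2 cells. A cluster without a name, led by Apod, Cd209d and Alox5, had the highest Klrd1 outside NK cells, at 950.2 CPM in KO against 792 CPM in WT cells (0.26, 0.16 to 0.36), with Klrk1 at 244 CPM in KO and 233 in WT and Klra17 at 106 CPM in KO and 100.1 in WT.

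**Figure D4:**
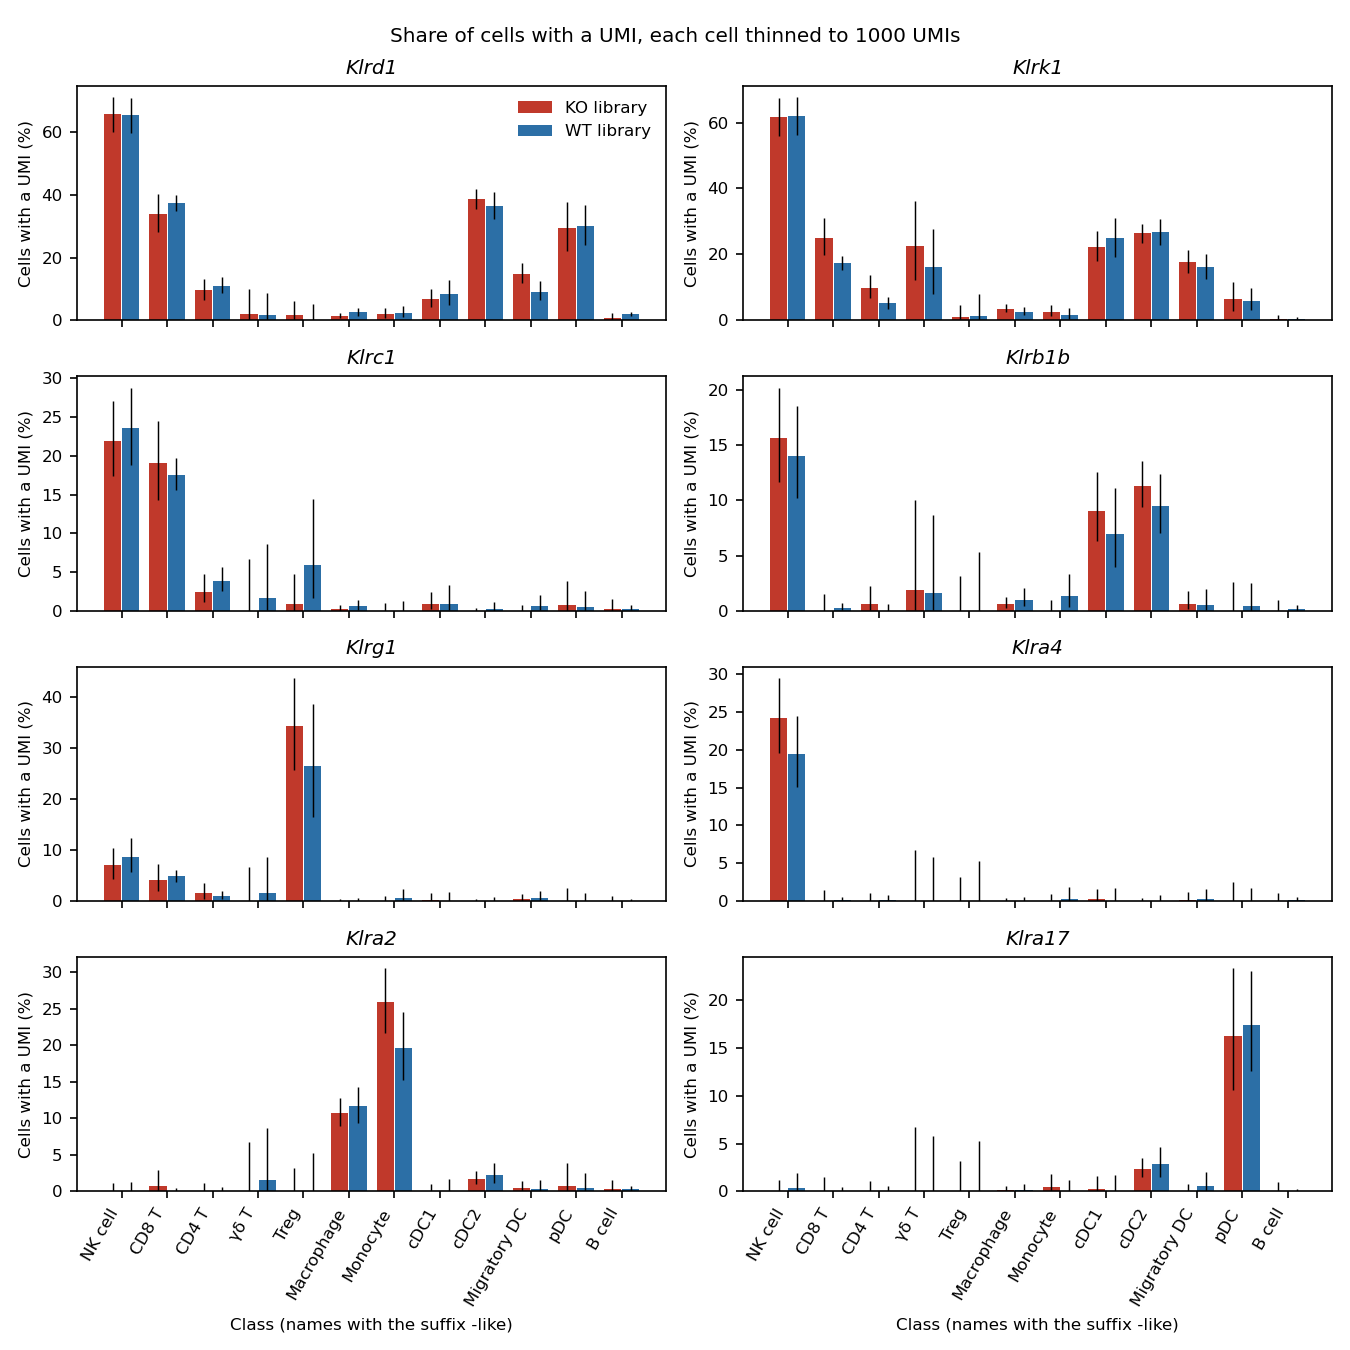
Share of cells (%) with at least 1 UMI of 8 Klr genes by class, each cell thinned to 1000 UMIs, KO bars left of WT bars, with exact Clopper-Pearson 95% intervals. Klrd1 and Klrk1 span NK, T and dendritic classes, Klrg1 peaks in regulatory T cell-like cells (34.2% KO and 26.5% WT), Klra2 in monocyte-like cells (25.9% in KO and 19.6% in WT) and Klra17 in pDC-like cells (16.2% in KO and 17.4% in WT), while B cell-like cells stay at or under 1.89% for each.

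Macrophage-like and monocyte-like cells, the classes in which the Cre acts, held 88.4% of all Klra2 UMIs together with neutrophil-like cells. In macrophage-like cells it was at 134 CPM in KO against 148 CPM in WT cells (log2 ratio -0.14, interval -0.27 to -0.00), detected in 44.3% of KO and 41.0% of WT cells. In 326 KO and 252 WT cells chosen by C1q transcripts and without Cd3 transcripts, whatever their cluster, Klra2 was at 93.0 CPM in KO against 141 CPM in WT cells (-0.60, -0.83 to -0.37). In monocyte-like cells it was at 279 CPM in KO against 188 CPM in WT cells (0.57, 0.42 to 0.72), detected in 84.9% in KO and 72.9% in WT. At 1000 UMIs per cell the shares were 10.8% in KO and 11.6% in WT in macrophage-like and 25.9% in KO and 19.6% in WT in monocyte-like cells, against 0.276% in KO and 0.281% in WT in B cell-like cells and 0% in NK cell-like cells of each library. Monocyte markers moved with it, at 9916 CPM in KO against 6048 CPM in WT monocyte-like cells. Their part was not tested. At a finer clustering (Leiden resolution 1.5) the monocyte ratio of Klra2 was 0.14.

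The summed Klr level of macrophage-like cells was 216 CPM in KO against 257 CPM in WT (log2 ratio -0.25, interval -0.35 to -0.15). With at most 10% mitochondrial UMIs allowed, the ratio was 0.69, but only 49 KO and 71 WT cells then had the macrophage-like name and the unnamed clusters held 1434 KO and 2109 WT cells, against 653 KO and 1767 WT cells otherwise, so filter and naming changed together. Klrk1 in macrophage-like cells was at 47.3 CPM in KO against 38.1 CPM in WT cells (0.31, interval 0.06 to 0.57), and in monocyte-like cells at 28.8 CPM in KO and 52.2 in WT (-0.86, -1.22 to -0.50). Klrd1 was lower in the KO library in both, at 10.9 CPM in KO against 37.5 CPM in WT macrophage-like cells (-1.79, -2.15 to -1.43) and 33.8 CPM in KO against 73.9 CPM in WT monocyte-like cells (-1.13, -1.45 to -0.81). The 5 cells with the most Klrd1 held 24.5% of it in KO and 38.4% in WT macrophage-like cells, and 66.4% in KO and 45.1% in WT monocyte-like cells. In the cells chosen by C1q transcripts, Klrd1 was at 38.4 CPM in KO against 43.7 CPM in WT cells (-0.19, -0.58 to 0.21), which is not past 2-fold. T and B cell transcripts moved the same way. The 6 CD8 T cell markers summed to 31.3 CPM in KO against 175 CPM in WT macrophage-like cells and to 28.2 CPM in KO and 430.3 in WT in monocyte-like cells, the 8 B cell markers to 67.5 CPM in KO and 284 in WT and to 198 CPM in KO and 1988 in WT, and 8 of 11 cytotoxic effectors in macrophage-like and 8 of 12 in monocyte-like cells were at least 2-fold lower with 0 higher. Their part in the Klrd1 and Klrk1 values was not tested.

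Of 10 genes with 20 UMIs in macrophage-like cells, 0 were at least 2-fold higher and 2 lower, Klrd1 and Klrg1 (6 KO and 16 WT UMIs), against 2.16% and 3.81% of 11392 genes. Of 10 in monocyte-like cells, 2 were higher (Klre1 and Klra17) and 5 lower (Klrd1, Klrb1b, Klrc2, Klrg1 and Klra7), against 2.44% and 7.52% of 10204 genes. Klra17 had 17 KO and 3 WT UMIs there and Klre1 22 UMIs in KO and 9 in WT in 6 cells each. Some of the lower genes also rested on few cells. The 14 WT UMIs of Klra7 lay in 4 cells, and the 22 WT UMIs of Klrg1 in 9 cells. Klrc2 had 13 KO UMIs in 5 cells and 27 WT UMIs in 15 cells. Over the alternative settings the log2 ratio of Klrb1b ranged from -1.45 to -0.38. The end nearest 0, without shared barcodes, was inside 2-fold. Neutrophil-like cells, 24 KO and 146 WT, held 5 and 42 Klra2 UMIs.

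**Figure D5:**
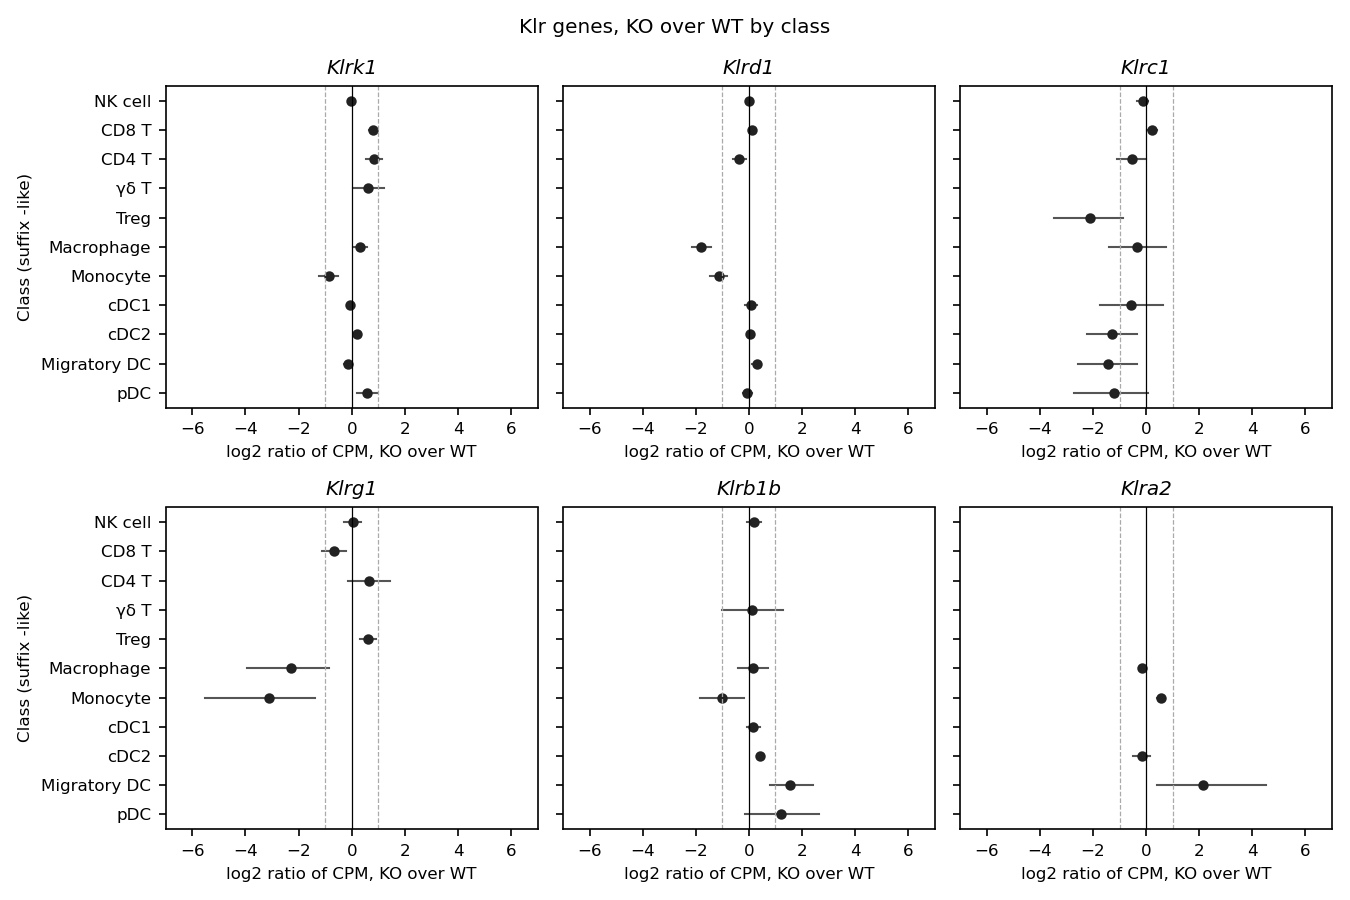
Log2 ratio of CPM, KO over WT, of 6 Klr genes in 11 classes (rows) with exact 95% counting intervals, shown where a gene had at least 20 UMIs, with dashed lines at 2-fold. Klrk1 is above 0 in CD8 (0.80) and CD4 T cell-like cells (0.83) and below in monocyte-like cells (-0.86), and Klrd1 is below -1 in macrophage-like and monocyte-like cells only.

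Few ligand genes passed 2-fold. H2-T23, which encodes Qa-1, the ligand of CD94-NKG2 receptors, was at 284 CPM in KO against 240 CPM in WT macrophage-like cells (0.24) and at 27.8 CPM in KO and 35.8 in WT in 87 KO and 119 WT melanoma-like cells (-0.37). All 5 genes of its list had 20 UMIs in each of the 11 leukocyte classes compared and 0 passed 2-fold there, while 1 of the 5 was at least 2-fold lower in melanoma-like cells. The share of all genes past 2-fold was not computed for melanoma-like cells, so that count has no background beside it. Of the 9 NKG2D ligand genes 5 were in the files, and Raet1d reached 5.90 CPM in KO against 7.76 CPM in WT melanoma-like cells, on 24 UMIs in KO and 26 in WT. Clec2d, a ligand of NKR-P1 receptors, was at 352 CPM in KO against 343 CPM in WT NK cell-like cells (0.04), and Clec2i at 91.4 CPM in KO and 141 in WT (-0.63). Clec2i had 9 KO and 19 WT UMIs in regulatory T cell-like cells (-2.28), and Clec2d 37 UMIs in KO and 86 in WT in melanoma-like cells. Cdh1 (E-cadherin), a ligand of Klrg1, was highest in pDC-like cells at 110.3 CPM in KO against 85.0 CPM in WT (0.38) and was at 39.9 CPM in KO and 49.2 in WT in cDC2-like cells (-0.30). Of 8 other lectin genes in the NK gene complex, Cd69 and Clec7a had 20 UMIs in NK cell-like cells. Cd69 was at 383 CPM in KO against 411 CPM in WT cells (-0.10).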

How the data were processed

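The deposited matrices hold UMI counts, given as integers without normalization. Per the labels, CD45+ cells went through the 10x Chromium 3′ v3 kit. Per the submitters' processing notes the tools were bcl2fastq 2.20, Cell Ranger 3.1.0 and Seurat 4.0.1 on GRCm38; per the file headers the matrices came from Cell Ranger 4.0.0.

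Barcodes under 200 genes or over 15% mitochondrial UMIs were dropped. Scrublet's threshold removed 2 KO and 0 WT cells, so doublets were not effectively filtered. scanpy 1.11.5 clustered cells (2000 variable genes without Klr genes, 30 components, 15 neighbours, Leiden resolution 1.0). Clusters were named from marker lists without Klr genes; the naming limits were set after clusters were seen. The Klr genes, gene lists and naming were chosen with earlier results of these data known.

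UMIs were summed per class and library and given as CPM, with exact Poisson, Clopper-Pearson or conditional binomial 95% intervals. A count of 0 was taken as 3 for ratios. There was 1 library per genotype, so no test was run. Gene positions came from GENCODE M21 (GRCm38) and promoters from RefSeq. Klr genes with at least 20 UMIs in a class are described with values; of other lists, the highest gene and the largest and smallest ratios are named, plus receptor partners, ligands and the few genes past 2-fold, chosen after their values were seen. The calculations were tested on simulated data. Alternatives covered clustering, filters, scaling, thinning and marker gates.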

Additional observations from a re-analysis of the deposited data

Results flagged for a closer look

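For 6 Klr genes, 2 classes moved in opposite directions between the libraries, with both counting intervals clear of 0 and at least 100 UMIs in each class. The differences between classes were not tested, since each library is 1 sample. The rule was applied to Klr genes only, so the share of all genes that meet it is not known. It also takes the most extreme class on each side. The log2 ratio of KO over WT of Klrd1 was 0.29 in migratory dendritic cell-like and -1.79 in macrophage-like cells, 2.08 apart. That of Klrk1 was 0.83 in CD4 T cell-like and -0.86 in monocyte-like cells, 1.69 apart. Klrg1 was 1.25 apart, at 0.60 in regulatory T cell-like and -0.65 in CD8 T cell-like cells. Klrc1 was 0.77 apart, at 0.22 in CD8 and -0.54 in CD4 T cell-like cells. Klra2 was 0.71 apart, at 0.57 in monocyte-like and -0.14 in macrophage-like cells. Klrc2 was 0.59 apart, at 0.37 in CD8 T cell-like and -0.22 in NK cell-like cells. Some of these ratios moved under other settings. Apart from marker gates for CD4 and CD8 T cells, no other setting was run for Klrk1 in CD4 T cell-like and monocyte-like cells. The same holds for Klrg1 in regulatory and CD8 T cell-like cells and Klrc1 in CD4 T cell-like cells. With marker gates, the Klrg1 ratio of CD8 T cells was 0.11 and the Klrd1 ratio of macrophages -0.19 (-0.58 to 0.21). In gated CD4 T cells the Klrc1 ratio was -0.48 (-1.15 to 0.14) and the Klrk1 ratio 0.52 (0.21 to 0.82). The Klra2 ratio of macrophages was -0.60 with gates and kept its sign. The Klrc2 ratio of NK cell-like cells was 0.03 at Leiden resolution 0.6. Lymphocyte markers that differ between the libraries in the macrophage-like and monocyte-like classes stand beside their Klrd1 and Klrk1 values above, and their part was not tested.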

How the results depend on the processing

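No paired analysis was possible because there is 1 library per genotype. The summed NK cell-like ratio (0.03) became 0.08 with Klr genes in the clustering and with median-of-ratios scaling, 0.31 at Leiden resolution 0.6, -0.07 at 1.5, -0.09 with components centred per library, -0.06 at 10% mitochondrial UMIs, -0.01 without the top 6% of doublet scores and when thinned, -0.03 without shared barcodes (chosen after seeing the data) and -0.04 with marker gates. NK levels in CPM were 6865 KO and 5544 WT at resolution 0.6, 8299 KO and 8729 WT at 1.5, 8249 KO and 8757 WT centred, 8421 KO and 8791 WT at 10% mitochondrial UMIs, 8039 KO and 8231 WT without shared barcodes, 10048 KO and 9664 WT without ribosomal and mitochondrial genes in the total, and 8007 KO and 8065 WT thinned. The WT level was 7218 with Klr genes in the clustering and 7772 without top doublet scores, and the KO level 7100 with gates. NK shares of cells with a Klr UMI were 88.9% KO and 75.8% WT at resolution 0.6, 95.6% KO and 95.9% WT with gates, 98.1% WT with Klr genes in the clustering, and 100% KO at 10% mitochondrial UMIs and at 2000 UMIs. The CD8 ratio (0.33) was -0.59 centred, with 8 KO cells, 0.26 thinned and 0.25 with median scaling. The CD4 ratio was 1.0 centred, with 18 KO cells. The gamma-delta ratio was 0.24 without the 5 top cells. The macrophage ratio (-0.25) was -0.53 with Klr genes in the clustering, -0.39 centred and with gates, and 0.69 at 10% mitochondrial UMIs, where 49 KO and 71 WT cells had that name.

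Counts of genes past 2-fold were, in NK cell-like cells (0), 1 at resolution 1.5, centred, without shared barcodes, with gates, thinned and at 1.5-fold. In CD8 T cell-like cells (5) they were 3 with Klr genes in the clustering and without top doublet scores, 9 centred, 8 with gates and at 1.5-fold, 1 thinned and 2 at 50 UMIs. In CD4 T cell-like cells (0) they were 1 with Klr genes in the clustering, at resolution 1.5, thinned and with median scaling, 2 at resolution 0.6 and at 10 UMIs, 3 centred and 4 at 1.5-fold. In gamma-delta T cell-like cells (0) they were 7 with gates and 1 at 1.5-fold. In macrophage-like cells (2) they were 1 with Klr genes in the clustering, at resolution 1.5, without shared barcodes and at 50 UMIs, 4 at resolution 0.6, at 10 UMIs and at 1.5-fold, and 0 at 10% mitochondrial UMIs, with gates and thinned. The share of all genes past the limit was computed for the main setting only. The counts under the alternatives therefore have no background beside them.

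Over 52 pairs of gene and class, 42 of 524 alternative values had the other sign than the main one, most of them where the main ratio was near 0. Of pairs past 2-fold, 4 values turned: Klra7 in CD8 T cell-like cells (3.33 centred, 0.01 with gates), Klra3 there (3.41 centred) and Klrc2 in monocyte-like cells (0.17 at 10% mitochondrial UMIs). Klrk1 ranged from 0.35 to 0.86 in CD8 T cell-like cells, Klre1 there from 0.56 to 1.47, and Klrb1b in cDC2-like cells from 0.28 to 0.51. Klrd1 in macrophage-like cells ranged from -2.29 to -0.19, the end nearest 0 with marker gates. The causes were not tested. Genes under 20 UMIs in a class are limited by depth.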
